A study of Mus musculus with 4 samples.

Results

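The core spliceosome and small nuclear ribonucleoprotein (snRNP) genes were examined in muscle of young and old mice. Members were all genes with a value in every sample whose symbol begins with Snrp, Snrnp, Sf3a, Sf3b, Prpf, Lsm or U2af. The rule gave 52 members of 20340 gene labels. Of these, 46 encode parts of the splicing machinery, 5 encode Lsm proteins that act outside it, and Lsmd1 carries only the prefix (its product is an auxiliary subunit of an N-terminal acetyltransferase). The row of Lsm2 also carries Hspa1l, that of U2af1l4 also carries Tmem149 and that of Snrpn also carries Snurf, so these values cannot be assigned to one gene alone. Sf3b3, Sf3b6, Sf3b14, Lsm1, Lsm4, Lsm6, Lsm8, Lsmem1 and Lsmem2 were not analysed here.

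mRNA-seq had been performed on tibialis anterior (TA) muscle, a muscle of the front of the lower leg, from untreated wild type C57BL/6 mice aged 3 months (Young) or 20 months (Old). There were 2 samples per age, Young 1, Young 2, Old 1 and Old 2, although the design text speaks of triplicates, and whether each is a separate animal or a pool is not given in the sources used here. Expression is given as FPKM, read fragments scaled to transcript length and library size, so levels of different genes are compared per length. FPKM holds no read counts, so sequencing depth is unknown here and no counting error can be given.

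The samples did not share a scale. Over the joined loci, summed FPKM was 698100 in Old 1 and 739300 in Young 2, against 226700 in Old 2 and 251300 in Young 1. The share of loci listed at 0 was 25.35% and 25.89% in the first pair, against 46.39% and 45.87% in the second. Old 1 was therefore set beside Young 2 and Old 2 beside Young 1, and every member was read in both pairs. Between the samples of an age, the difference in scale varied with level (Spearman's rho of -0.66 between the log2 ratio of Old 1 to Old 2 and the mean level over 8374 tested genes). The study's legend describes the samples as independent sequencing experiments, but whether those of one age differ by more than sampling noise cannot be tested without counts. The agreement of both pairs is therefore not read as a replicate check. The p-values rest on the spread between these samples, in the fit as deposited pooled over genes, and that spread may be technical. With 2 samples against 2, an exact permutation test cannot give a p below 0.33.

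The spliceosome removes introns from messenger RNA precursors. U1 snRNP binds the 5′ splice site, U2AF and U2 snRNP mark the 3′ splice site and the branch point, and the U4/U6.U5 tri-snRNP then joins before the complex is remodelled for catalysis. The U1, U2, U4 and U5 RNAs each carry a ring of Sm proteins, U6 carries a ring of LSm proteins, and a minor spliceosome with U11 and U12 serves a small class of introns. Muscle depends on splicing for the isoforms of its large structural proteins.

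2 sets of sequences are shown, for a pair of related members and for promoters. Snrpb and Snrpn encode SmB and SmN, alternative proteins of the same place in the Sm ring. Their coding sequences (GENCODE M21 on mm10, 693 and 720 bases) were identical at 558 of 693 aligned bases (80.5%), with a longest identical run of 32 bases. Reads had been aligned with up to 2 mismatches, and whether any were split between these genes was not tested. The first 150 coding bases are printed 5′ to 3′ with the 19 bases that differ in capitals. The Snrpb stretch lies in exons within chr2:130177020-130179236 and the Snrpn stretch in exons within chr7:59987417-59988604, both on the minus strand.
Snrpb: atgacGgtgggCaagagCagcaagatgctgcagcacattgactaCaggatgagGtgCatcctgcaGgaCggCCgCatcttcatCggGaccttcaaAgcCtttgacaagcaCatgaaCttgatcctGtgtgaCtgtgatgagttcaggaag
Snrpn: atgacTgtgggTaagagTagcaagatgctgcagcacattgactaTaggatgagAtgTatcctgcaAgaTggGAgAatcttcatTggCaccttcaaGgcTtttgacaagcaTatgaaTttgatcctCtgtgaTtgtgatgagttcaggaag

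Promoters of 3 members that passed the fold rule below follow, each as the 250 bases before the RefSeq start (GRCm38.p6). limma as deposited called none of these members. Prpf40b (chr15:99294991-99295240, plus strand) and Snrpb2 (chr2:143062819-143063068, plus strand) had higher values in Old, and Sf3b1 (chr1:55027479-55027728, minus strand) had lower ones. Capitals mark matches to 4 motifs on either strand, the TATA box TATAAA, the CCAAT box CCAAT, the ETS core CCGGAAG and the E-box CACGTG, none of which contains another.
Prpf40b: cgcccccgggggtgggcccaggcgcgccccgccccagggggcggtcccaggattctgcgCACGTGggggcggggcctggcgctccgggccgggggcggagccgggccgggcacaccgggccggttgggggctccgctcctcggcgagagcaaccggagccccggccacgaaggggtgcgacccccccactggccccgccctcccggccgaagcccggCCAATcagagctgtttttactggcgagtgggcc
Snrpb2: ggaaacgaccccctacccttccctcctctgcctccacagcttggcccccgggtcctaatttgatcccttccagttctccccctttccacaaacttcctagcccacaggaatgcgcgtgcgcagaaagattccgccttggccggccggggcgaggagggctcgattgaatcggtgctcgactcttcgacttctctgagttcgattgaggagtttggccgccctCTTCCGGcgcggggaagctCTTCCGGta
Sf3b1: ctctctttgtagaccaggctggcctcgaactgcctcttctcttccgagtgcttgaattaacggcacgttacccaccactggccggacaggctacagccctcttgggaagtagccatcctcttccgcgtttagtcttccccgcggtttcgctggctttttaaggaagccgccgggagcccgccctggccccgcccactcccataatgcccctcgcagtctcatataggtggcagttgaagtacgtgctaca

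Promoters could be matched for 42 of the 52 members. The ETS core, a site bound by ETS family factors, was found in 12 of them (28.6%), against 6.91% of all 32851 promoters and 13.4% of the 8777 promoters of tested genes. The CCAAT box was found in 16 (38.1%, against 33.8% and 34.5%), the E-box in 3 (7.14%, against 6.02% and 8.44%) and the TATA box in 2 (4.76%, against 12.4% and 6.40%). Of the 10 matched members that were higher in Old by the fold rule below, 4 held the ETS core, 3 the CCAAT box and 1 the E-box. The Sf3b1 window held no match to the 4 motifs, as did that of the other matched member that was lower in Old.

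All 52 members passed the filter of at least 1 FPKM in at least 2 samples, and 10266 genes were tested. The median member had 24.1 FPKM in Old 1, 19.8 in Young 2, 10.3 in Old 2 and 9.39 in Young 1. Levels ran from 1.12 to 168 FPKM in Old 1 and from 1.23 to 145 FPKM in Young 2. Of the members, 28 (53.8%) were higher in Old in both pairs, 18 were lower in both and 6 did not go the same way. Among all tested genes, 42.3% were higher and 45.2% lower in both pairs. Among genes with at least 1 FPKM in all samples, these shares were 46.5% and 48.3%. The median log2 difference of the members (log2 of FPKM + 1, Old minus Young) was 0.10, with 0.12 in the pair of Old 1 and Young 2 and 0.06 in the other, while the median of all tested genes was -0.01. In a tissue sample, a change in the share of a cell type and a change in RNA per cell cannot be told apart.

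Members were then counted that were at least 25% higher, or at least 20% lower, in Old on the FPKM + 1 scale in both pairs. The values were higher for 11, among them Lsm5, Prpf40b, Snrnp27, Snrpb2, Prpf4b, Prpf6, Snrnp70, Snrpd2, Lsm14b and Lsm14a, where 12.3% of all tested genes passed. They were lower for Snrpn, Sf3b4 and Sf3b1, where 15.9% of all tested genes passed. Of genes with at least 1 FPKM in all samples, 14.6% passed as higher and 17.7% as lower. At 1.5-fold, 2 members, Lsm5 among them, were left as higher (3.63% of tested genes) and no member as lower (5.71%).

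limma on log2(FPKM + 1) as deposited called no member in either direction at an adjusted p under 0.05, and no member had an unadjusted p under 0.05. In all, 0.302% of the tested genes were called, 0.175% higher and 0.127% lower. The standard error of a member was close to 0.95 on the log2 scale, since the factor between samples of one age enters the spread. That fit had a median of 20530 degrees of freedom, because limma drew the spread almost wholly from all tested genes together. Its standard errors and p-values therefore do not measure the spread of a single gene. The fitted difference was 0.68 ± 0.95 (SE, n = 2 per age) for Lsm5 and 0.58 ± 0.95 for Snrpb2. It was -0.55 ± 0.93 for Snrpn, -0.39 ± 0.96 for Sf3b4 and -0.38 ± 0.93 for Sf3b1, all with an adjusted p of 1.00. With each sample first divided by its median ratio to the other samples, a setting added with the values known, limma called Snrpb2 (adjusted p = 0.0387) and Prpf38a (adjusted p = 0.0387) higher and Sf3b4 (adjusted p = 0.0456) lower. Under that scaling 5.61% of all tested genes were called higher and 7.94% lower. With the 2 pairs as a block, also added, 21 members were called higher and 11 lower, against 27.4% and 32.9% of all tested genes, but this fit takes both pairs as independent. Quantile normalization called no member, and 2.99% of all tested genes.

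**Figure D1:**
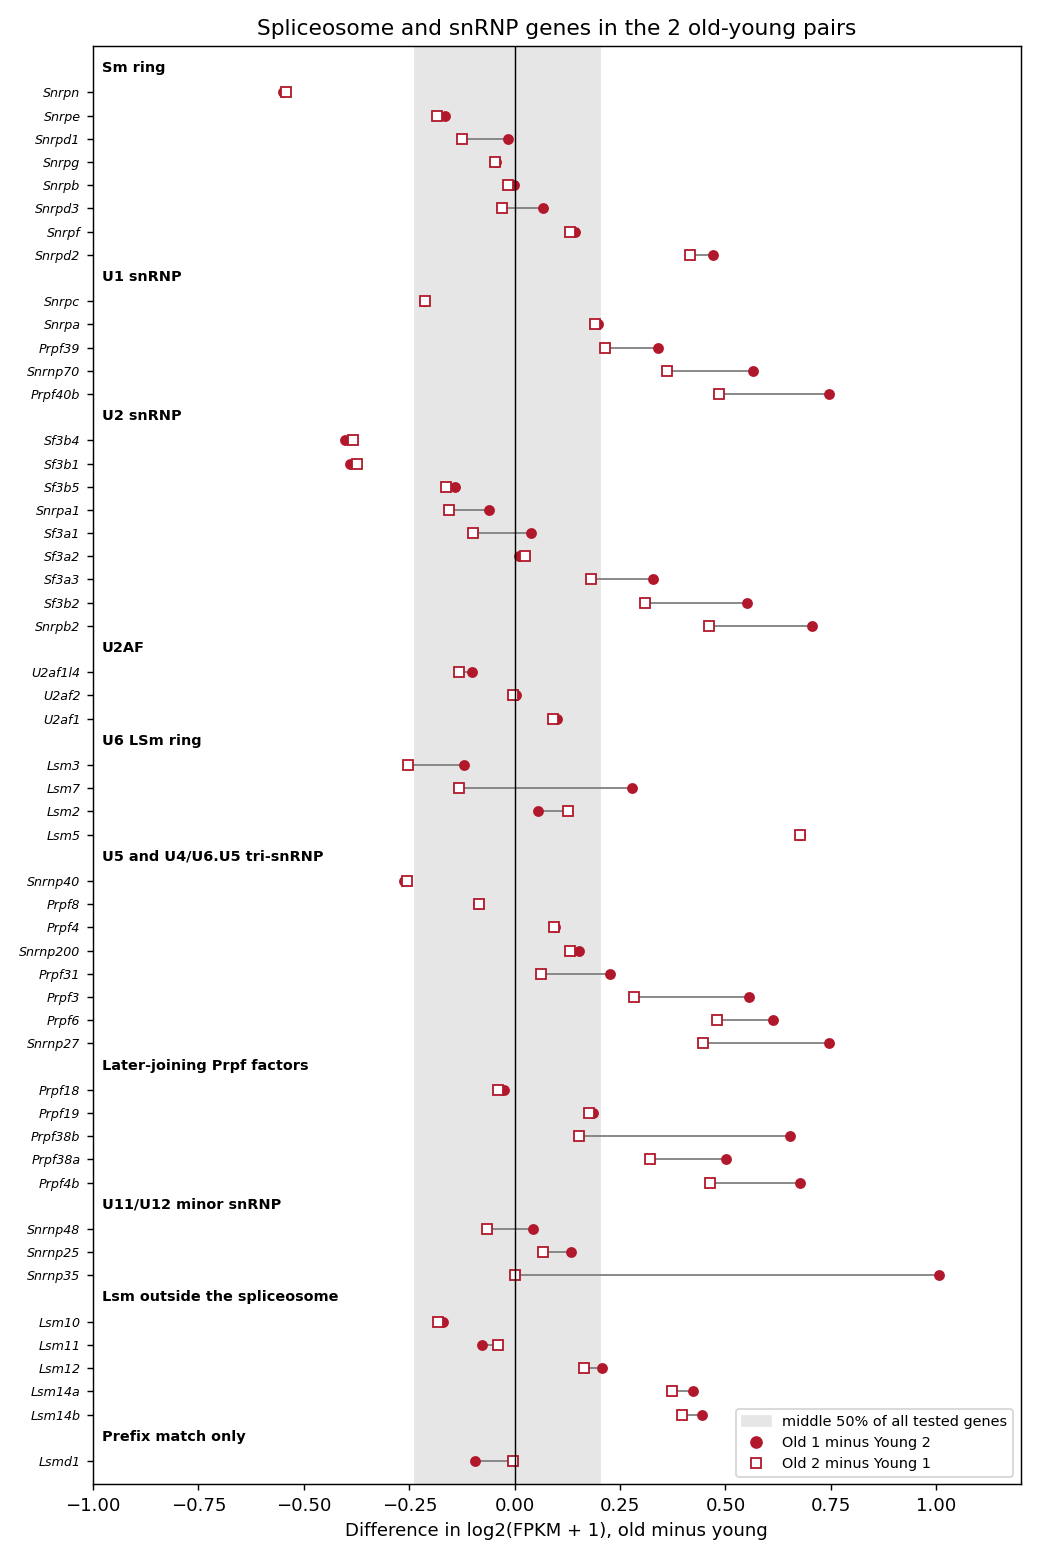
Difference in log2(FPKM + 1), old minus young, for 51 of the 52 members by particle. Filled circles stand for Old 1 minus Young 2, open squares for Old 2 minus Young 1 and the grey band for the middle 50% of all tested genes (-0.24 to 0.20). U1, tri-snRNP and later-joining Prpf genes lie mostly to the right, while Snrpn, Sf3b4 and Sf3b1 lie to the left in both pairs.

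The Sm ring genes, which encode the shared core of the snRNPs, were the most abundant group and lay close to equal between ages as a group. Of the 8 genes, 2 were higher and 5 lower in both pairs, with a median log2 difference of -0.03. Snrpb had 144 FPKM in Old 1 against 145 in Young 2, and 75.3 in Old 2 against 76.1 in Young 1. Snrpn, an imprinted gene best known from the nervous system, had 33.4 FPKM in Old 1 against 49.4 in Young 2, and 17.3 in Old 2 against 25.6 in Young 1. Thus the values of Snrpb were almost equal within pairs, whereas Snrpn was at 0.676- and 0.675-fold in Old, the lowest of all members.

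Snrpd2, which encodes SmD2, was the exception on the higher side of the ring. It had 168 FPKM in Old 1 against 121 in Young 2, and 86.4 in Old 2 against 64.4 in Young 1, which is 1.39- and 1.34-fold. Snrpe, which encodes SmE, had 70.1 against 78.7 FPKM in the first pair and 33.0 against 37.7 in the second. SmD1, SmD2, SmD3, SmE, SmF and SmG sit in the ring as single copies, but the folds of their genes ran from 0.890 (Snrpe) to 1.39 (Snrpd2) in the pair of Old 1 and Young 2. The other genes of the ring, Snrpd1, Snrpd3, Snrpf and Snrpg, lay between 0.970 and 1.11 in that pair and between 0.904 and 1.10 in the other.

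Genes of U1 snRNP, the particle that first recognizes the 5′ splice site, had mostly higher values in Old. Of 6 genes, 5 were higher and 1 lower in both pairs, 3 of them by the fold rule, and the median log2 difference was 0.37 (0.45 and 0.29 in the pairs). Prpf40b, a mammalian relative of a yeast U1 protein, lies at chr15:99295344-99317007. It had 9.999 against 5.56 FPKM and 5.01 against 3.29. Snrnp70, which encodes U1-70K, had 55.7 FPKM in Old 1 against 37.3 in Young 2, and 25.5 in Old 2 against 19.6 in Young 1. The other U1-specific proteins did not follow U1-70K to the same size. Snrpa, whose product binds a stem loop of the U1 RNA, was at 1.15- and 1.16-fold. Snrpc, whose product stabilizes the pairing of U1 with the 5′ splice site and which had the highest level of the group, had 58.4 against 67.9 FPKM and 29.4 against 34.2, which is 0.860- and 0.859-fold.

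U2 snRNP, which binds the branch point, held members in both directions. Of 9 genes, 4 were higher and 4 lower in both pairs, with a median log2 difference of -0.03. Sf3b1, which encodes the largest SF3b subunit and clamps the branch point, had 31.1 FPKM in Old 1 against 41.1 in Young 2, and 16.2 in Old 2 against 21.2 in Young 1. Sf3b4, another SF3b subunit, had 8.79 against 11.9 FPKM and 3.83 against 5.30. Both were thus at 0.722- to 0.761-fold in Old in each pair. They lie at chr1:54985170-55027478 (Sf3b1) and chr3:96172550-96177564 (Sf3b4).

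Sf3b5, the U2 gene with the highest level, had 47.1 FPKM in Old 1 against 52.1 in Young 2, and 22.9 in Old 2 against 25.8 in Young 1. Phf5a, an SF3b subunit that the symbols of the rule do not reach and that was added after its values were seen, had 28.0 against 38.3 FPKM and 14.2 against 19.6. Of these 5 SF3b genes, Sf3b1, Sf3b4, Sf3b5 and Phf5a were lower in both pairs, while Sf3b2 was higher with 31.9 against 21.5 FPKM and 16.7 against 13.3. The SF3a genes, whose products join SF3b on U2, showed no such lower values. Sf3a2 and Sf3a3 were higher in both pairs, at 1.01- and 1.02-fold and at 1.29- and 1.17-fold, and Sf3a1 differed in sign between pairs.

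The pair of proteins that bind the U2 RNA stem together also differed. Snrpb2, which encodes the RNA-binding member of the pair, had 19.3 FPKM in Old 1 against 11.46 in Young 2, and 8.82 in Old 2 against 6.13 in Young 1, at chr2:143063069-143072052. Snrpa1, which encodes its partner, had 12.2 against 12.8 FPKM and 5.45 against 6.19. The folds were 1.68 and 1.44 for Snrpb2 against 0.956 and 0.880 for Snrpa1. For U2AF, the factor that reads the polypyrimidine tract and the 3′ splice site, the folds of 3 genes lay between 0.909 and 1.07. U2af1l4, on the row it shares with Tmem149, had 44.3 against 47.6 FPKM and 21.1 against 23.2.

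**Figure D2:**
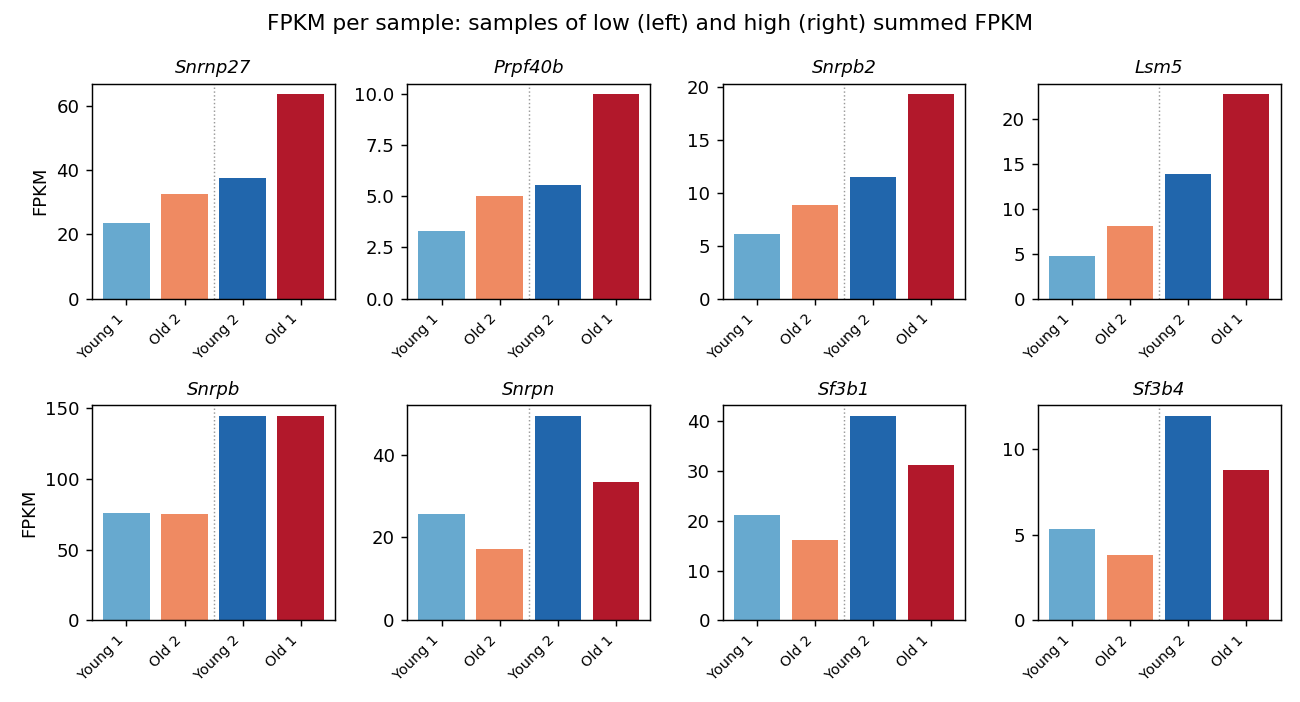
FPKM of 8 members in each sample, with the samples of low summed FPKM on the left and those of high summed FPKM on the right of the dotted line. Red and orange bars stand for Old and blue bars for Young, with 1 bar per sample and no error bars. On each side, Snrnp27, Prpf40b, Snrpb2 and Lsm5 are higher in Old, Snrpb is level, and Snrpn, Sf3b1 and Sf3b4 are lower.

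The genes of the tri-snRNP, the U4/U6.U5 particle that brings the catalytic RNAs, were mostly higher in Old. Of 8 genes, 6 were higher and 2 lower in both pairs, and the median log2 difference was 0.14. Snrnp27 had 63.8 FPKM in Old 1 against 37.7 in Young 2, and 32.5 in Old 2 against 23.6 in Young 1. Prpf6, which bridges U5 and U4/U6, had 15.9 against 10.1 FPKM and 8.26 against 5.64. These 2 genes passed the fold rule.

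The U5 core differed less. Prpf8, the protein at the catalytic center, was at 0.940-fold in both pairs, and Snrnp200, the helicase that unwinds U4 from U6, was at 1.12- and 1.11-fold. Snrnp40, a further U5 protein, was the lowest of the particle with 9.03 against 11.03 FPKM and 4.01 against 4.97. Among the U4/U6 proteins, Prpf3 was at 1.57- and 1.30-fold on the FPKM scale, Prpf4 at 1.08-fold in both pairs and Prpf31 at 1.18- and 1.05-fold. The values of Prpf3 (7.04 against 4.47 FPKM and 3.31 against 2.54) were low enough that it stayed under the fold rule after 1 was added.

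Of the U6 LSm ring, 4 genes had values, and they did not go together. Lsm5, at chr6:56701063-56704699, had 22.8 FPKM in Old 1 against 13.9 in Young 2, and 8.11 in Old 2 against 4.70 in Young 1. With folds of 1.64 and 1.73 it stood apart from the other ring genes. Lsm3 had 20.2 against 22.0 FPKM and 8.15 against 9.90. Lsm7, the highest of the group in Old 1, had 29.1 against 23.8 FPKM in the first pair but 11.4 against 12.6 in the second, so that its direction was not shared. Lsm2, on its row with Hspa1l, was at 1.04- and 1.10-fold.

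Prpf genes whose products join or act after the tri-snRNP were higher in Old in 4 of 5 cases, with a median log2 difference of 0.40 (0.50 and 0.18 in the pairs). Prpf4b, a kinase needed for assembly of the precatalytic spliceosome, had 16.05 FPKM in Old 1 against 9.66 in Young 2, and 8.28 in Old 2 against 5.73 in Young 1. Prpf38a was at 1.48- and 1.33-fold. Prpf38b was at 1.67-fold in the first pair and 1.14-fold in the second, with 6.19 FPKM in Young 2 against 4.47 in Young 1, the smallest step between samples of one age among the members. Prpf19, the ubiquitin ligase that gives the Prp19 complex its name, had 53.6 against 47.0 FPKM and 27.1 against 23.9. Prpf18, a factor of the second step, was at 0.983- and 0.970-fold.

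For the minor spliceosome, Snrnp25, Snrnp35 and Snrnp48 encode proteins of the U11/U12 particle. Snrnp35, at chr5:124483155-124532447, was listed with 39.0 FPKM in Old 1 and 18.9 in Young 2, and at 0 in Old 2 and Young 1, so only 1 pair can be read. A listed 0 can be a failed estimate in these values, since Ckm, the muscle creatine kinase that every muscle fiber uses, was listed at 0 in all 4 samples. Snrnp25 was at 1.11- and 1.06-fold and Snrnp48 at 1.04- and 0.945-fold.

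Lsm genes with roles outside splicing were also split. Lsm14a and Lsm14b, whose products bind repressed messenger RNA in cytoplasmic granules, were both higher in Old. Lsm14a had 47.1 FPKM in Old 1 against 34.9 in Young 2, and 24.7 in Old 2 against 18.8 in Young 1, and Lsm14b was at 1.38- and 1.35-fold. Lsm10 and Lsm11, which encode the Lsm proteins of U7 snRNP for histone messenger RNA, were lower in both pairs. Lsm10 had 8.77 against 9.997 FPKM and 3.01 against 3.55, and Lsm11, the least abundant member in Old 1, was at 0.904- and 0.914-fold. Lsm12 was at 1.16- and 1.13-fold. Lsmd1 had 69.3 against 74.0 FPKM and 30.2 against 30.3.

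To lessen the effect of the scale of a sample, the mean log2(FPKM + 1) of each group was set against that of the Sm ring in the same sample. This does not remove a difference in scale that varies with level, and the Sm ring was the most abundant group. U1 genes stood at -1.246 in Old 1 and -1.32 in Old 2, against -1.64 in Young 1 and -1.68 in Young 2. Both Old values were above both Young values, with a difference of 0.38 between the means of the ages. The later-joining Prpf factors (-1.72 and -1.59 in Old, -1.85 and -2.13 in Young) and the tri-snRNP (-1.78 and -1.68 in Old, -1.87 and -2.04 in Young) did not overlap between ages either. The same held for the U6 LSm ring and the Lsm genes outside splicing, with differences of 0.19 and 0.18, but of the ring genes Lsm5 alone passed the fold rule, Lsm3 was lower and Lsm7 split. Among all tested genes taken singly against the same reference, both Old values were above both Young values in 29.0% and below in 27.3%. For U2 genes the ages overlapped (-1.81 and -1.74 in Old, -1.76 and -1.89 in Young), as they did for U2AF and for the minor snRNP, where Snrnp35 was listed at 0 in Old 2 and Young 1. These values share the Sm ring as reference and carry no test.

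**Figure D3:**
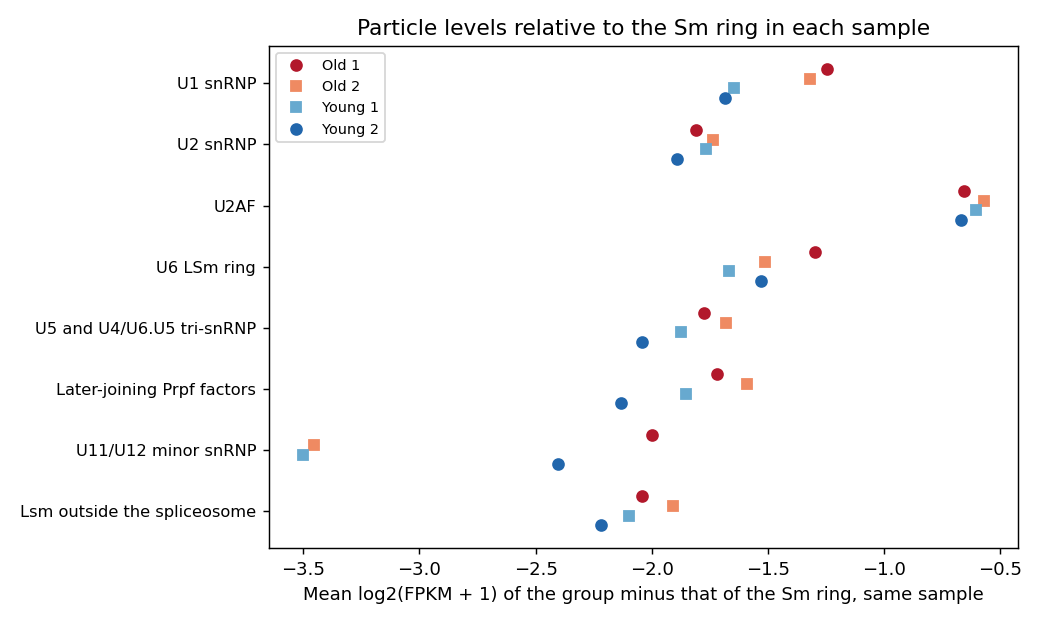
Mean log2(FPKM + 1) of each group of genes minus that of the Sm ring in the same sample. Red and orange points stand for Old, blue points for Young, and circles for the samples of high summed FPKM. The points of Old lie to the right of those of Young for U1, tri-snRNP, U6 LSm, later-joining Prpf and outside Lsm genes, and mix for U2 and U2AF genes.

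How closely the samples of one age tracked each other was read from their ratios. Over the 51 members above 0 in all samples, the log2 ratio of Old 1 to Old 2 had a median of 1.08 (range 0.93 to 1.87) and that of Young 2 to Young 1 a median of 0.99 (range 0.47 to 1.76). Prpf39, a U1 gene, was extreme in both ages with ratios of 1.87 and 1.76, while its folds between ages were 1.28 and 1.19. Of the 11 members that were higher in Old by the fold rule, 10 (90.9%) had the larger fold in the pair of Old 1 and Young 2, with median folds of 1.64 and 1.44. Of the 1219 tested genes that passed the same rule and were above 0 in all samples, 59.8% had the larger fold in that pair, with medians of 1.57 and 1.52. The median log2 ratio of Young 2 to Young 1 in those 11 members was 0.89, against 0.97 for Old 1 to Old 2, so the size of the higher values depended on the pair.

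**Figure D4:**
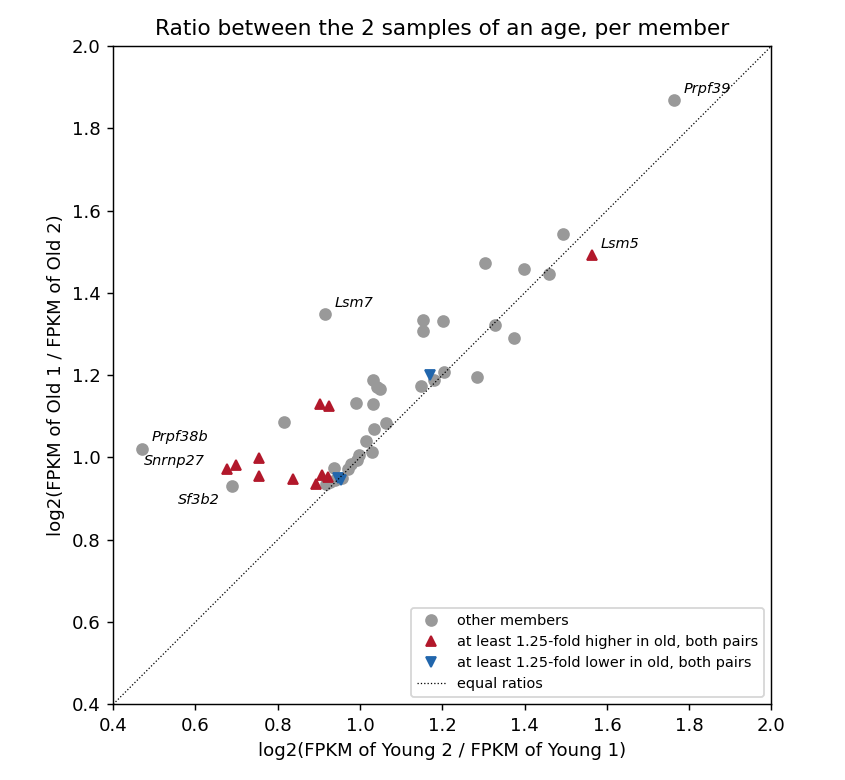
log2 ratio of Old 1 to Old 2 against the log2 ratio of Young 2 to Young 1 for the 51 members above 0 in all samples. Red triangles mark members higher in Old by the fold rule, blue triangles those lower, and the dotted line equal ratios. Points above the line have a larger fold in the pair of Old 1 and Young 2, which holds for 10 of the 11 red triangles and not for Lsm5.

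Other properties of the members were compared with the difference as a description, over genes that share the same 4 samples. Length and exon number were those of the longest coding transcript in GENCODE M21, not of the RefSeq genes behind the FPKM. A length can thus differ from that of the quantified locus, as for Sf3b5 (3841 bases, locus chr10:13008450-13009183). Spearman's rho between the log2 difference and transcript length was 0.19 over the 52 members and 0.04 over 8690 tested genes with an annotated coding transcript. For the number of exons it was 0.25 and 0.11. Of the 26 members with longer transcripts (2061 to 7844 bases), 17 were higher and 6 lower in both pairs, against 11 and 12 of the 26 shorter ones (494 to 1915 bases). The ratio of Old 1 to Old 2 went with length (rho -0.44 over 51 members, -0.16 over 8374 tested genes) and with the mean level (-0.38 and -0.66), and their part in the differences was not tested.

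Of 76 further spliceosome genes that the symbols do not reach, 61 had a value and passed the filter. Among them 44 (72.1%) were higher and 13 (21.3%) lower in Old in both pairs, against 42.3% and 45.2% of all tested genes. By the fold rule 14 (23.0%) were higher and 2 (3.28%) lower, against 12.3% and 15.9%. limma as deposited called none of them and gave none an unadjusted p under 0.05, while 5 were called higher with median-ratio scaling, where 5.61% of all tested genes were. A group of 4 labelled second step held Slu7, Cdc40, Cwc22 and Cwc27, not all of which act in that step. Its median log2 difference was 0.65, with 0.68, 0.04, 0.63 and 0.70 for the genes in that order. Of these, Slu7, which helps to choose the 3′ splice site, was at 1.81- and 1.60-fold, whereas Cdc40 was at 1.08- and 1.00-fold, close to the second-step member Prpf18. The 4 further genes of the minor spliceosome were all higher in both pairs, with Zcrb1 at 2.02- and 1.68-fold. Among them is Rnpc3, at 1.88-fold in both pairs on a row that it shares with Amy1. Among the other groups, Wdr77 shares its row with Ovgp1 and Ddx5 with Mir3064. The values of these shared rows cannot be assigned to one gene alone.

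Genes of the Prp19 complex and related factors were higher in both pairs in 11 of 13 cases, with Syf2 at 2.11- and 1.78-fold. Helicases were higher in both pairs in 8 of 9, with Ddx23 at 1.80- and 1.59-fold. Of all tested genes, 42.3% were higher in both pairs. Ddx23 encodes the helicase that, with Prpf6 and Prpf8, acts in the tri-snRNP. By contrast, the exon junction complex (3 higher and 1 lower of 5) and snRNP assembly factors (8 and 2 of 13) held no gene past the fold rule. The 8 further genes of the tri-snRNP were split evenly, with 4 higher and 4 lower in both pairs, and Ppih, a tri-snRNP cyclophilin, was at 0.704- and 0.667-fold. Apart from Phf5a and Ppih, none of the 61 was lower by the fold rule.

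**Figure D5:**
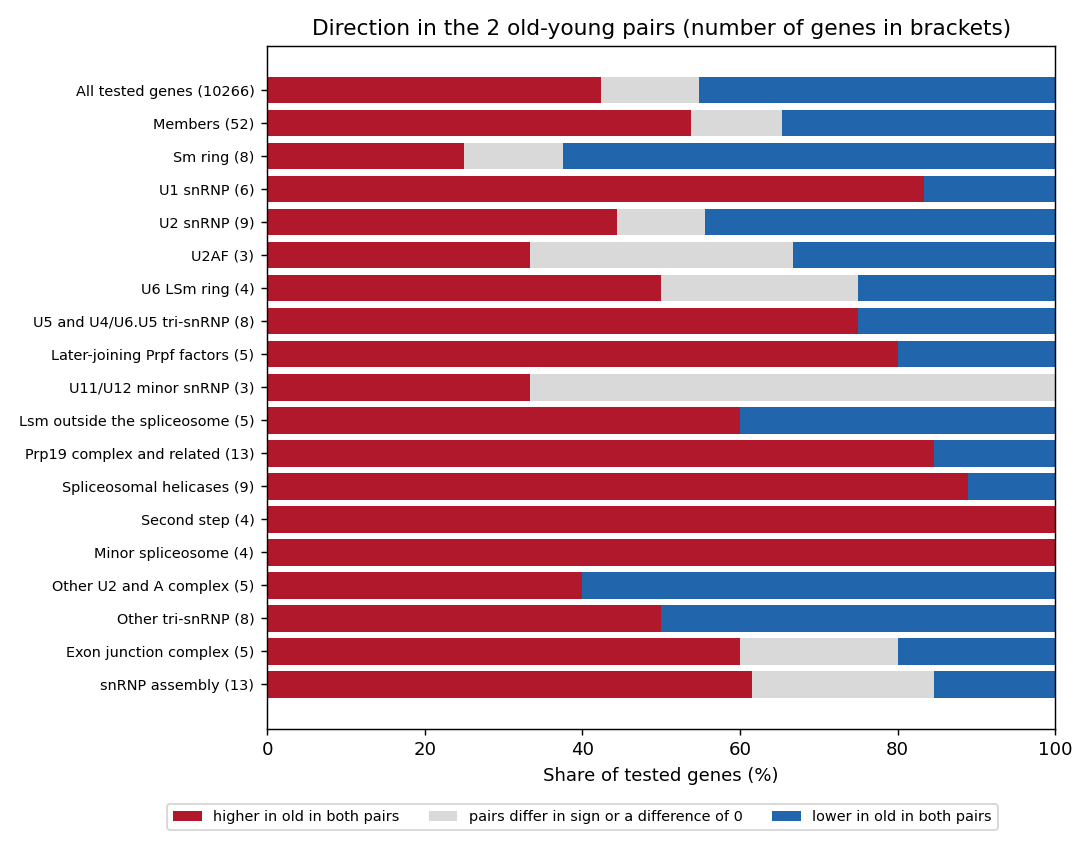
Share of tested genes that were higher in Old in both pairs (red), lower in both (blue) or neither (grey), for all tested genes, the 52 members, their particles and 8 further groups of spliceosome genes. Red shares are 75% or more for U1, tri-snRNP and later-joining Prpf members. The same holds for the further groups labelled Prp19 complex and related, spliceosomal helicases, second step and minor spliceosome. The group labelled second step holds Slu7, Cdc40, Cwc22 and Cwc27. The red share is 25% for the Sm ring, 33.3% for the U11/U12 members and 50% for the further tri-snRNP genes.

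The tissue was checked against its markers. Of 8 tested skeletal muscle fiber genes, 1 was higher and 2 lower in both pairs, and Myl1, a myosin light chain, stood at 18206 and 16592 FPKM in Old 1 and Young 2. Ttn, which encodes titin, was listed at 0 in both Old samples against 14.1 FPKM in Young 1 and 299 in Young 2. limma, with its spread pooled over genes, called Ttn lower (adjusted p = 3.57e-07). Neb, which encodes nebulin, was listed at 0 in Old 2 and Young 1. As a listed 0 can be a failed estimate in these values, the call of Ttn is not read as a change in titin. All 5 slow fiber genes with a value were called higher in Old, and their summed FPKM was 1167 in Old 1 and 421 in Old 2 against 27.9 in Young 1 and 73.0 in Young 2. The shared row of the hemoglobin genes Hba-a1 and Hba-a2 stood at 607 and 277 FPKM in Old against 39.5 and 88.6 in Young. Of the macrophage markers 4 of 5, of the endothelial markers 4 of 6 and of the fibroblast markers 4 of 7 were lower in Old in both pairs, while 3 of 5 adipocyte and 3 of 4 satellite cell markers were higher. Their part in the differences of the spliceosome genes was not tested.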

How the data were processed

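mRNA-seq of TA muscle from 2 Young and 2 Old samples was used. Reads had been aligned to mm10 with TopHat2 2.0.10 (up to 2 mismatches) guided by RefSeq genes, and the authors deposited FPKM values per locus from Cufflinks 2.1.1, separately for each sample. Cuffdiff 2.1.1 is also named in the submitters' processing notes and was not repeated, since it needs aligned reads. The paper names a stranded kit, which the labels do not, and the part of antisense genes was not tested. FPKM hold no counts, so the depth of a sample is unknown and no count test was run. Loci past the end of the shortest table (within chromosome 7, chromosomes in text order) were not analysed here, and 1 incomplete line per table was left out.

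Of the 20605 loci shared by all samples, rows of one symbol were summed. Old and Young were compared on log2(FPKM + 1) with lmFit and trended eBayes of limma 3.58.1 (R 4.3.3). Tests were two-sided, with p adjusted by Benjamini-Hochberg over all 10266 tested genes and a threshold of 0.05. Genes needed at least 1 FPKM in at least 2 samples. The fitted difference is the mean of both pair differences, and folds are ratios of FPKM, while the fold rule (25% higher or 20% lower in both pairs) uses FPKM + 1, which understates low genes. The fit was also run on simulated data, without and with a constant factor between samples. As the factor in these data varied with level, that run does not check the values given here. Sequences came from RefSeq and GENCODE M21 and were aligned with Biopython 1.88. Figures were drawn with matplotlib 3.10.9, and other steps used numpy 2.4.6, scipy 1.17.1 and pandas 2.3.3 under Python 3.11.15.

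Values are given per sample for the 8 highest and 8 lowest members, Snrpb and Snrpn, the highest of each particle, members listed at 0 and members past the threshold, and the others by fold or range. The values of 1 member are not reported here, while counts and medians include it. The members, lists and pairs were chosen with earlier results of these data known. Alternatives were another pseudocount, filter, scaling, quantile normalization, the highest row per symbol, no trend, the replicate number as a block and each sample left out. Added later were crossed pairs as a block, median-ratio scaling, and leaving out Snrnp35 or the 3 shared rows of members.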

Additional observations from a re-analysis of the deposited data

How the results depend on the processing

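With median-ratio scaling, 2 members were called higher and 1 lower and 5 of the other spliceosome genes were called, against 0 of each as deposited. Under that scaling 5.61% of all tested genes were called higher and 7.94% lower. Quantile normalization called 1 of the other spliceosome genes and no member, with 2.99% of all tested genes called. A stricter rule of 1.5-fold left 2 members higher and 0 lower, against 3.63% and 5.71% of all tested genes. A pseudocount of 0.1 gave 14 and 3 by the fold rule. The share of all tested genes was not counted at that pseudocount, so these 2 counts are not read as a result about the members. Leaving out each sample in turn moved the fitted log2 difference between -0.016 and 1.37 for Lsm5, between -0.84 and 0.077 for Sf3b1 and between -0.91 and 0.13 for Sf3b4, because the sample left out takes its scale with it. The member median then lay between -0.46 and 0.62. With all samples kept, the median log2 difference lay between 0.37 and 0.40 for U1, 0.14 and 0.17 for the tri-snRNP and 0.39 and 0.45 for the later-joining Prpf factors. With at least 1 FPKM required in all samples it went from 0.10 to 0.045 for the minor snRNP, as it did without Snrnp35, and from 0.18 to 0.29 for the Lsm genes outside splicing. With all samples kept, those of the Sm ring, U2 and U2AF stayed within 0.05 of 0.

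Whether the replicate numbers of the labels pair the samples could not be tested. Deviations of same-numbered samples correlated at -0.88 over 10266 genes, but with 2 samples per age the crossed pairs give the same value with its sign turned, and the difference in scale enters it. With the replicate number as a block, limma called 0 members higher and 0 lower. With the crossed pairs as a block it called 21 members higher (27.4% of all tested genes) and 11 lower (32.9%), and 41 of the other spliceosome genes. The pairs were chosen on these values, so the p-values of that fit may not reflect the spread between mice. FPKM without counts, 2 samples per age and unknown depth limit all values.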
